A study of Mus musculus with 6 samples.

Results

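In mouse liver, 10 genes of the first wave of transcription that follows a signal at the cell surface were examined: the Jun genes Jun, Junb and Jund, the Fos genes Fos and Fosl2, their partner Atf3, the zinc finger genes Egr1 and Klf6, the survival gene Ier3, and Myc. The 10 genes were found by matching their symbols to the Ensembl gene IDs of a count table with 49671 gene entries, and all 10 were among the 16089 genes with enough counts to be tested.

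Livers were from C57BL/6J male mice that were fed the AMLN diet, a fat, fructose and cholesterol rich diet that produces fatty liver with inflammation and fibrosis, from 4 weeks of age for 18 weeks. Both groups carried floxed SHMT2 alleles. The 3 SHMT2fl/fl samples (labelled WT) were controls without Cre. The 3 SHMT2HKO samples (labelled KO) also carried Albumin-Cre, used to target hepatocytes. From protein levels in liver, the paper proposes that SHMT2 in the non-parenchymal cells was not affected, and SHMT2 by cell type was not measured here. Every mouse received the AMLN diet, and no chow-fed liver was analysed here, so the comparison is of genotypes within the disease model. RNA was from whole liver after a fast, in which fewer cells of a type and less RNA per cell cannot be told apart.

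AP-1 is a dimer of basic leucine zipper proteins. A Jun protein pairs with another Jun, a Fos or an ATF protein, and the pair binds short DNA elements in enhancers and promoters. Genes such as Fos, Egr1 and Ier3 are called immediate early genes because MAP kinases, through serum response factor and its ELK partners, switch them on within minutes from factors already present in the cell, and their transcripts decay as fast. In liver, JUN is known for its part in hepatocyte survival, regeneration and tumour formation, and AP-1 in other cells drives cytokine, protease and matrix genes.

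Libraries held 23090837 to 34089722 counts on genes. Levels are given as CPM, counts scaled to library size, after scaling of library sizes by TMM, a method that sets the bulk of genes to no change, and 3 counts corresponded to 0.0733 to 0.152 CPM on this scale. Shmt2, the targeted gene, was at 94.5, 109 and 93.8 CPM in SHMT2fl/fl samples 1 to 3 and at 24.9, 28.2 and 19.3 CPM in SHMT2HKO samples 1 to 3. Every SHMT2HKO sample was below every control, as its label states (log2 fold change -2.04, SE 0.16, adjusted p = 0.000639 by edgeR's quasi-likelihood test). By an exact two-sided permutation test p was 0.1, the smallest value that 3 samples against 3 can give.

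Of the 10 genes, 3 (Junb, Egr1 and Ier3) were lower in SHMT2HKO livers at an adjusted p under 0.05 (edgeR, Benjamini-Hochberg over all genes tested), and none was higher. Among all genes tested 29.0% were called, 16.5% lower and 12.5% higher, and no test was made of whether 3 of 10 differs from these shares. The median log2 fold change was -0.49 for the 10 genes and 0.03 for all genes tested. The same 3 genes were those whose groups did not overlap, where 25.0% of all genes lay wholly lower in SHMT2HKO and 21.9% wholly higher. The other 7 genes overlapped between genotypes, and 6 of them (Jun, Jund, Fos, Fosl2, Atf3 and Klf6) had one SHMT2HKO sample, sample 3, at or near control level and the other SHMT2HKO samples below every control.

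**Figure D1:**
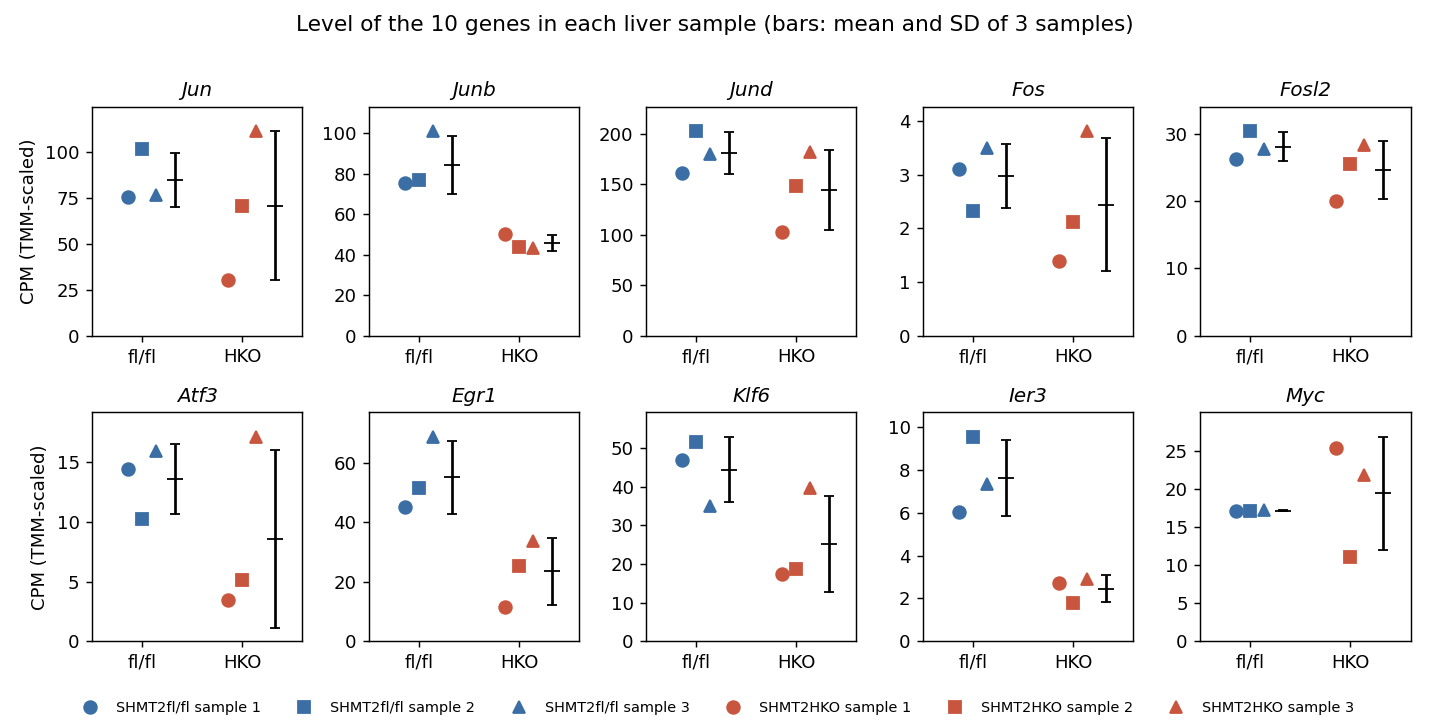
TMM-scaled CPM (y axis, from 0) of each gene in the 3 SHMT2fl/fl (blue) and 3 SHMT2HKO (red) liver samples, with the sample number as the symbol and the mean with its SD beside the points. Junb, Egr1 and Ier3 separate the genotypes, and in Jun, Jund, Fos, Fosl2, Atf3 and Klf6 SHMT2HKO sample 3 lies within or above the controls.

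The Jun genes were the most abundant of the set per length in both genotypes, and only Junb of the 3 was called. Junb, which encodes a Jun protein that activates more weakly than JUN (ENSMUSG00000052837, GRCm38 chr8:84974484-84978718, minus strand), was at 75.5, 77.2 and 101 CPM in the controls and at 50.5, 44.0 and 43.3 CPM in SHMT2HKO samples 1 to 3. The SHMT2HKO values lay close together, all below the lowest control. Means were 84.6 ± 14.3 and 45.9 ± 3.97 CPM (SD, n = 3 each), a ratio of 0.543 (log2 fold change -0.88, SE 0.15, edgeR adjusted p = 0.00440). The call was lost with a correction for GC content and length combined with the sample number as a block (-0.43, adjusted p = 0.0599). With the correction alone the log2 fold change was -0.44 (edgeR adjusted p = 0.0368), and with the block alone it was -0.87. It was -1.31 without TMM and -1.63 with scaling to the ERCC spike-in RNAs, so its size depended on the setting. The exons of Junb overlap those of Prdx2, on the opposite strand, by 173 bases. Whether counting used the strand is not given in the sources used here, and Prdx2 held 3637 to 5877 counts a sample against 870 to 3877 for Junb.

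Jun, the subunit that gives AP-1 its name (ENSMUSG00000052684, chr4:95049034-95052222, minus strand), was at 75.3, 102 and 76.9 CPM in the controls and at 30.4, 70.6 and 111 CPM in SHMT2HKO samples. Sample 1 was the lowest and sample 3 the highest of all 6, so the SHMT2HKO group spanned the controls. Its mean was 70.8 ± 40.4 CPM against 84.6 ± 14.8 CPM, and the difference was smaller than the spread (log2 fold change -0.26, SE 0.41, adjusted p = 0.680). The antisense gene Junos shares 232 exonic bases with Jun and held 21 to 70 counts, few beside the 718 to 3081 of Jun.

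Jund, the Jun protein found in resting cells and the least dependent on induction (ENSMUSG00000071076, chr8:70698949-70700616, plus strand), was at 162, 203 and 180 CPM in the controls and at 103, 149 and 182 CPM in SHMT2HKO samples. Samples 1 and 2 were below every control, and sample 3 lay among them. The log2 fold change was -0.33 (SE 0.21, adjusted p = 0.275). With the correction for GC content and length the difference was 0.26 for Jund, whose transcript has the highest GC content of the 10 genes at 67.1%, and 0.10 for Jun, so neither has a settled direction.

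The Fos genes were the least abundant per length in controls, and neither was called. Fos, which cannot dimerize with itself and needs a Jun partner (ENSMUSG00000021250, chr12:85473890-85477273, plus strand), was at 3.10, 2.33 and 3.49 CPM in the controls and at 1.40, 2.12 and 3.81 CPM in SHMT2HKO samples. The order of the SHMT2HKO samples was that of Jun, with sample 1 lowest and sample 3 above every control. These levels rest on 33 to 134 counts a sample (log2 fold change -0.28, SE 0.38, adjusted p = 0.613). Fosl2, which encodes FRA-2, a Fos relative without the strong activation domain of FOS (ENSMUSG00000029135, chr5:32135801-32157842, plus strand), was at 26.2, 30.4 and 27.7 CPM in the controls and at 19.97, 25.5 and 28.4 CPM in SHMT2HKO samples. It varied less than Fos, and only sample 3 reached the controls (-0.19, SE 0.15, adjusted p = 0.384, and 0.18 with the correction for GC content and length).

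Atf3, a stress-induced partner of Jun proteins that often represses (ENSMUSG00000026628, chr1:191170296-191218039, minus strand), had the widest spread between SHMT2HKO samples of the 10 genes as a ratio of highest to lowest. It was at 14.5, 10.3 and 16.0 CPM in the controls and at 3.43, 5.16 and 17.1 CPM in SHMT2HKO samples. Samples 1 and 2 were below every control, and sample 3, which was 4.99 times sample 1, was above every control. The log2 fold change over all samples was -0.66 (SE 0.56, adjusted p = 0.419), and without SHMT2HKO sample 3, 2 or 1 it was -1.69 (adjusted p = 0.00350), -0.40 (adjusted p = 0.678) or -0.27 (adjusted p = 0.684).

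Promoter sequence was read for the members in the RefSeq promoter table (GRCm38.p6), which held 8 of them. Egr1 and Myc had no entry, so their promoters were not searched. The bases before the gene start are shown for Junb and Ier3, which were lower in every SHMT2HKO sample, and for Jun and Klf6, which followed the sample rather than the genotype alone, 5′ to 3′ on the strand of the gene.
Junb: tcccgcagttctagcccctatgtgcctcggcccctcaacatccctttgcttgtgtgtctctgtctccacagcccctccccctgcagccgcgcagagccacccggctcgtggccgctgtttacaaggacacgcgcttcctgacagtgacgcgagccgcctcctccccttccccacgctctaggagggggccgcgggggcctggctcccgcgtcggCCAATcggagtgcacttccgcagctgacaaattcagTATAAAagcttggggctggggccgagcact
Ier3: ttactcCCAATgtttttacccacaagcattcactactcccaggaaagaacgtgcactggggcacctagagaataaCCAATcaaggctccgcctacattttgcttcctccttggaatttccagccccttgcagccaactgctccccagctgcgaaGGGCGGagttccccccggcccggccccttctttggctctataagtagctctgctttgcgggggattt
Jun: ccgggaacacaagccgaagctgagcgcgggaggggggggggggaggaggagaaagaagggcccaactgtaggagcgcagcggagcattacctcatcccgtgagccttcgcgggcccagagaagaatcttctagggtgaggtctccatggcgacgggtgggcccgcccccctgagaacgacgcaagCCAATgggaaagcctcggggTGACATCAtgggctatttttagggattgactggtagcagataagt
Klf6: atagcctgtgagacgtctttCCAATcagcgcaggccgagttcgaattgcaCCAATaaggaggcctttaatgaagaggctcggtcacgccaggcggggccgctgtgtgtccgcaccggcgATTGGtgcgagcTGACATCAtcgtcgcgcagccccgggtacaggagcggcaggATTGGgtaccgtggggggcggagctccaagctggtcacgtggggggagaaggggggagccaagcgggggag
Capitals mark the TATA box and the CCAAT box in Junb, the CCAAT box and the GC box in Ier3, and in Jun and Klf6 the CCAAT box, on either strand, and the element TGACATCA. The windows are chr8:84978719-84978998 (minus strand) for Junb, chr17:35821463-35821683 (plus) for Ier3, chr4:95052223-95052472 (minus) for Jun and chr13:5861239-5861481 (plus) for Klf6.

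The promoters of Jun and Klf6 hold TGACATCA, 45 and 112 bases before the gene start. Of all 32851 promoters, each a window from 250 bases before the RefSeq start to 50 after it, 3.62% hold these letters, and among the 8 members with a promoter only Jun and Klf6 do. The cAMP response element, TGACGTCA, was in 1.79% of all promoters and in none of the 8. The AP-1 element in the exact spelling TGACTCA, or its reverse complement TGAGTCA, was in 5.20% of promoters and in none of the 8. Its search left out variant spellings, so it does not show that these promoters lack AP-1 elements. The CArG box of serum response factor was in 1.63% of promoters and in none of the 8. The TATA box, TATAAA, lies 30 bases before the start of Junb, and it was in 13.6% of promoters and in 2 members, Junb and Fos. The CCAAT box, spelled as its name, was in 37.4% of promoters and in 5 members (Atf3, Ier3, Jun, Junb and Klf6). The GC box, GGGCGG, was in 35.7% of promoters and in 6 members (Atf3, Fos, Fosl2, Ier3, Jun and Klf6). Both strands were searched, and the CCAAT box and the element shared by Jun and Klf6 were added once the promoters had been read. None of these motifs was shared by Junb and Ier3 and missing from both Jun and Klf6, and a match is a description of letters, not of a bound site.

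Ier3 had the largest fold change of the 10 genes with TMM scaling and all 6 samples. It encodes a small protein, also called IEX-1, that is induced by NF-kB and growth factors and modulates apoptosis and ERK signalling (ENSMUSG00000003541, chr17:35821684-35822923, plus strand). Its level was 6.04, 9.55 and 7.35 CPM in the controls and 2.71, 1.77 and 2.91 CPM in SHMT2HKO samples. All 3 SHMT2HKO samples were below the lowest control, sample 2 being the lowest. The mean went from 7.64 ± 1.77 to 2.46 ± 0.609 CPM, a ratio of 0.322 (log2 fold change -1.62, SE 0.27, adjusted p = 0.00425, from 35 to 282 counts a sample). Ier3 was the only member called under each of 17 other settings (adjusted p 1.55e-06 to 0.0219).

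Egr1, a zinc finger activator that is a classic readout of ERK signalling and controls lipid and fibrosis genes in liver (ENSMUSG00000038418, chr18:34859823-34864984, plus strand), was at 45.1, 51.6 and 68.7 CPM in the controls and at 11.5, 25.4 and 33.7 CPM in SHMT2HKO samples. The groups did not overlap, and sample 3 again stood nearest to the controls. The mean went from 55.2 ± 12.2 to 23.5 ± 11.2 CPM (ratio 0.427, log2 fold change -1.23, SE 0.36, adjusted p = 0.0371). The direction was lower in all 17 other settings, but the call was not secure. By edgeR the adjusted p was 0.191 without the filter on low counts (log2 fold change -1.25). With the correction for GC content and length it was 0.135 and the fold change was smaller (-0.77). Without SHMT2fl/fl sample 1, 2 or 3 the adjusted p was 0.0665 (-1.35), 0.0963 (-1.27) or 0.120 (-1.04). Without SHMT2HKO sample 2 it was 0.0851 (-1.28).

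Klf6, a zinc finger factor of hepatocytes and activated stellate cells (ENSMUSG00000000078, chr13:5861482-5870394, plus strand), was at 46.8, 51.5 and 35.1 CPM in the controls and at 17.4, 18.8 and 39.6 CPM in SHMT2HKO samples. Samples 1 and 2 were well below the controls and sample 3 lay among them. The log2 fold change was -0.81 (SE 0.32, adjusted p = 0.0907). It passed with DESeq2 (adjusted p = 0.0417), without TMM (adjusted p = 0.0438) and without SHMT2HKO sample 3 (-1.32, adjusted p = 0.00188, edgeR).

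Myc, the helix-loop-helix factor of growth and ribosome synthesis (ENSMUSG00000022346, chr15:61985391-61990374, plus strand), was the exception in pattern. It was at 17.06, 17.10 and 17.15 CPM in the controls (SD 0.0485) and at 25.3, 11.1 and 21.7 CPM in SHMT2HKO samples. Samples 1 and 3 were above the controls and sample 2 was below, so there was no common direction (log2 fold change 0.18, SE 0.27, adjusted p = 0.640). The sign turned without TMM (-0.23) and with scaling to the ERCC spike-in RNAs (-0.50).

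**Figure D2:**
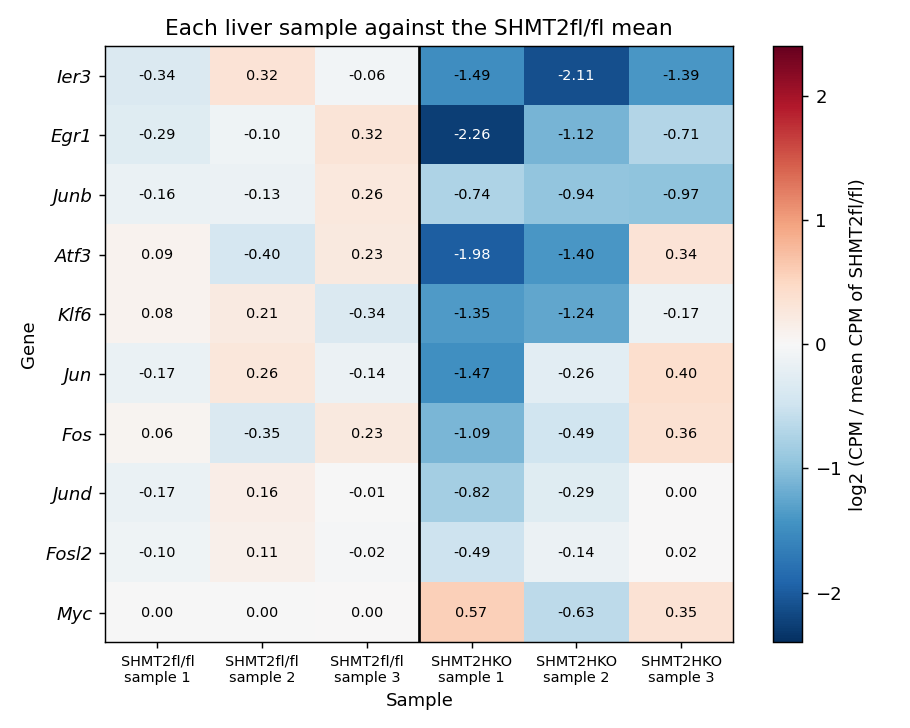
log2 of each sample's CPM over the SHMT2fl/fl mean of the gene, with genes in rows and the 6 liver samples in columns (blue lower, red higher, values printed). Ier3, Egr1 and Junb are blue in all 3 SHMT2HKO columns, whereas Atf3, Klf6, Jun, Fos, Jund and Fosl2 go from blue in SHMT2HKO sample 1 to about 0 or red in sample 3.

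The members also shared an order of the SHMT2HKO samples. For 7 of the 10 genes (Jun, Jund, Fos, Fosl2, Egr1, Atf3 and Klf6) sample 1 was the lowest and sample 3 the highest SHMT2HKO sample, an order seen in 21.2% of all genes tested. Sample 3 was the highest in 8 members (those 7 and Ier3), beside 36.5% of all genes, and sample 1 the lowest in 7, beside 35.3%. The ratio of sample 3 to sample 1 ran from 1.42 for Fosl2 to 4.99 for Atf3, through 3.66 for Jun, 2.92 for Egr1 and 2.73 for Fos. It was 0.857 for Junb, 0.859 for Myc and 1.07 for Ier3, a ratio that leaves out sample 2. The SD was larger in SHMT2HKO than in control samples for 7 genes, the exceptions being Junb, Egr1 and Ier3, a share near the 67.7% of all genes. SHMT2HKO sample 2 was below every control for all 10 genes, beside 41.6% of all genes tested, sample 1 for 9 (not Myc), beside 39.3%, and sample 3 for 3 (Junb, Egr1 and Ier3), beside 39.0%. Without sample 3 the count of members called lower was 5, with Atf3 and Klf6 added, where 18.3% of all genes were called lower, and without sample 1 it was 3, where 17.4% were.

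Across the 6 samples the log2 CPM of Jun moved with Fosl2 (Pearson's r 0.97) and Jund (0.96), that of Fos with Atf3 (0.96), and that of Jund with Fosl2 (0.997). Junb moved with Ier3 (0.90) and hardly with Jun (0.18), and Myc with none of the other 9 (-0.37 to 0.12). These are descriptions over 6 libraries of 2 genotypes that share depth and scaling. Outside the gene lists, the genes most like Fos among 12079 compared were Adnp2 (r = 0.995), Arap2 (0.994) and Atp6v1b2 (0.989), those most like Jun were Tbc1d8 (0.995), Gusb (0.990) and Naaladl2 (0.989), and those most like Myc were Micu3 (0.992), R3hdm1 (0.981) and Sox13 (0.978).

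Per kb of exon, where levels of different genes can be set side by side, the order in control livers was Jund (109 ± 12.3 CPM per kb), Junb (36.8 ± 6.21), Jun (26.5 ± 4.63), Egr1 (12.3 ± 2.72), Klf6 (10.1 ± 1.92), Ier3 (6.76 ± 1.57), Atf3 (6.31 ± 1.37), Myc (6.30 ± 0.0178), Fosl2 (2.91 ± 0.219) and Fos (1.27 ± 0.252). The neighbours from Egr1 to Myc overlapped in their samples, and the steps from Jund to Junb, Junb to Jun, Jun to Egr1, Myc to Fosl2 and Fosl2 to Fos did not. Jun genes were thus present at many times the level of Fos genes in both genotypes. In SHMT2HKO livers Jund was again first at 86.6 CPM per kb and Fos last at 1.04. Jun (22.2) and Junb (19.96) overlapped there, while Ier3 was at 2.18, below the mean of Fosl2 (2.55).

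Because dimers depend on the balance of subunits, ratios of counts within a library were compared, which do not depend on scaling between libraries. The ratio of Junb to Jund was 0.467, 0.381 and 0.562 in controls and 0.492, 0.296 and 0.238 in SHMT2HKO samples. SHMT2HKO sample 1 had a control-like ratio and the others were below the controls (difference of mean log2 ratio -0.51, exact permutation p = 0.3). The ratio of Jun to Junb was 0.997, 1.32 and 0.760 in controls and 0.603, 1.605 and 2.57 in SHMT2HKO samples, which thus held both the lowest and the highest value (difference 0.44, exact permutation p = 0.6). For Jun to Jund, Fos to Fosl2 and Jun to Fos the differences were -0.07, -0.18 and -0.05. None of the 5 ratios separated the genotypes, each with an exact permutation p of 0.9 after Benjamini-Hochberg adjustment over the 5.

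**Figure D3:**
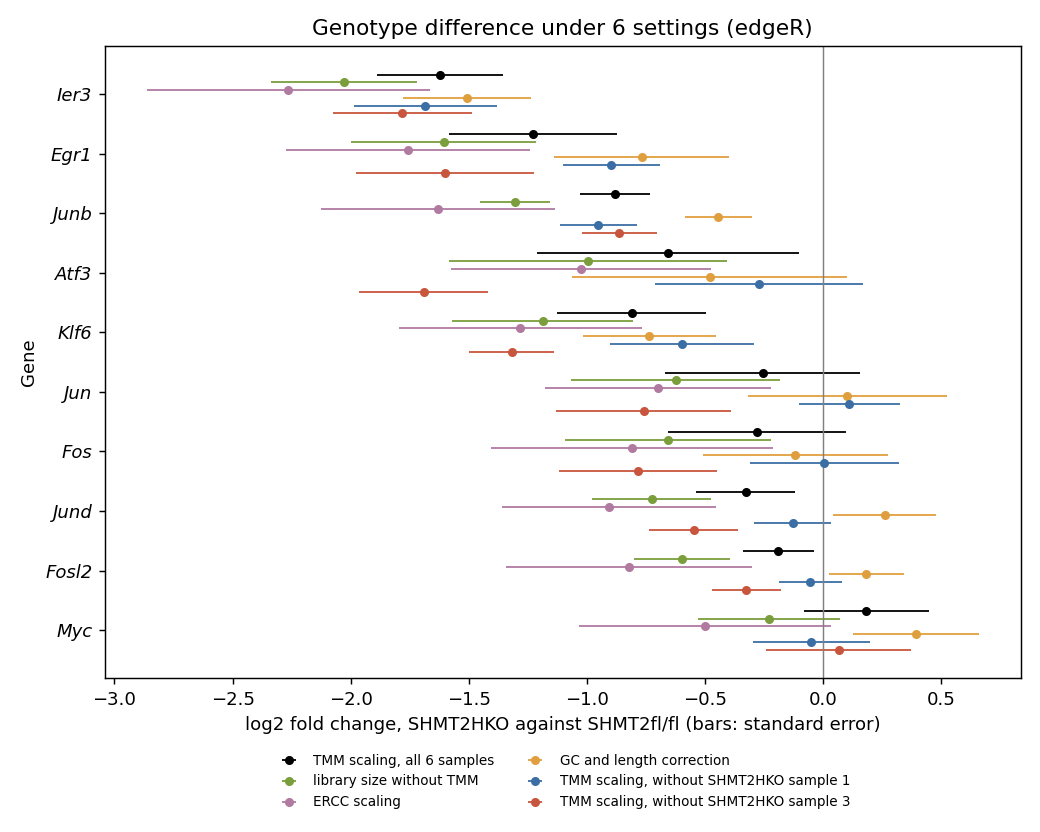
log2 fold change of each gene, SHMT2HKO against SHMT2fl/fl, with its standard error, from edgeR under 6 settings shown by colour. Ier3, Egr1, Junb, Klf6 and Atf3 stay below 0 in each, whereas Jun, Jund and Fosl2 are above 0 with the correction for GC content and length, Jun and Fos are at or just above 0 without SHMT2HKO sample 1, and Myc lies on both sides of 0.

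How far the set as a whole lay below the controls depended on the scaling. Compared to TMM, the median gene moved by -0.42 on the log2 scale without TMM and by -0.72 with the ERCC RNAs, and by 0.18 with the correction for GC content and length. Without TMM 30.6% of all genes were called lower and 3.34% higher, with ERCC scaling 17.1% and 0.665%, and with the correction 13.6% and 26.1%. The number of members called lower was 4, 3 and 2 under these, and none was called higher. ERCC RNAs made up 1.47%, 1.84% and 1.42% of counts in controls and 2.75%, 2.31% and 1.35% in SHMT2HKO samples, in the reverse order of the members' summed level there (265, 353 and 484 CPM) and of 7 of the 10 members, but not of Junb, Ier3 or Myc. The part of RNA content in the result was not tested.

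Of 14 other AP-1 subunits 13 were tested, and 2 were called lower (15.4%, near the 16.5% of all genes) and none higher (median log2 fold change -0.07). The 2 were Batf (1.39, 1.88 and 2.35 CPM in controls, 0.636, 1.06 and 0.786 CPM in SHMT2HKO, log2 fold change -1.18, adjusted p = 0.0371) and Batf2 (-1.17, adjusted p = 0.0440), bZIP proteins of lymphocytes and myeloid cells at low levels in whole liver. Among the most abundant subunits by CPM, Mafg (0.18), Maf (-0.04), Mafk (-0.08) and Atf7 (-0.07) had log2 fold changes near 0 with adjusted p of 0.253 or more. Nrl, a retinal subunit, was not tested, with at most 0.0752 CPM in a sample.

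Of 51 other immediate early genes 50 were tested, and 11 were called lower (22.0%, beside 16.5% of all genes) and 4 higher (8%, beside 12.5%). The median log2 fold change was -0.36, and 36 of the 50 were below 0. Those lower with the smallest adjusted p were Hbegf, a ligand of the EGF receptor (2.54, 4.25 and 3.88 CPM in controls against 1.02, 0.961 and 1.06 CPM, log2 fold change -1.80, adjusted p = 0.00386), Ier5l (-1.31, adjusted p = 0.00418), Gadd45b, a stress sensor upstream of p38 and JNK (15.8, 34.7 and 19.5 CPM against 4.62, 5.36 and 9.59 CPM, -1.83, adjusted p = 0.00939), and Plk2 (-0.97, adjusted p = 0.0103). In each of these 4 every SHMT2HKO sample was below every control. Rhob, an endosomal GTPase, was lower by the same test (-1.03, adjusted p = 0.0328).

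The gene called higher with the smallest adjusted p was Plk3, a stress kinase, at 92.8, 95.7 and 71.0 CPM in controls and 185, 169 and 227 CPM in SHMT2HKO samples (1.16, adjusted p = 0.00269). Errfi1, the feedback inhibitor of the EGF receptor also known as MIG6 and the most abundant of the list, was at 631, 744 and 417 CPM in controls and 1000.2, 1068 and 1141 CPM in SHMT2HKO samples (0.84, adjusted p = 0.0252). Of the other genes among the 5 most abundant Rhob was lower, as given above, and those not called were Mcl1 (-0.05, adjusted p = 0.803) and Cebpb (0.33, adjusted p = 0.574). Cebpb, a hepatocyte bZIP factor, followed the members in its spread, with 85.2, 135 and 243 CPM in SHMT2HKO samples 1 to 3 around controls of 90.7, 174 and 104 CPM.

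**Figure D4:**
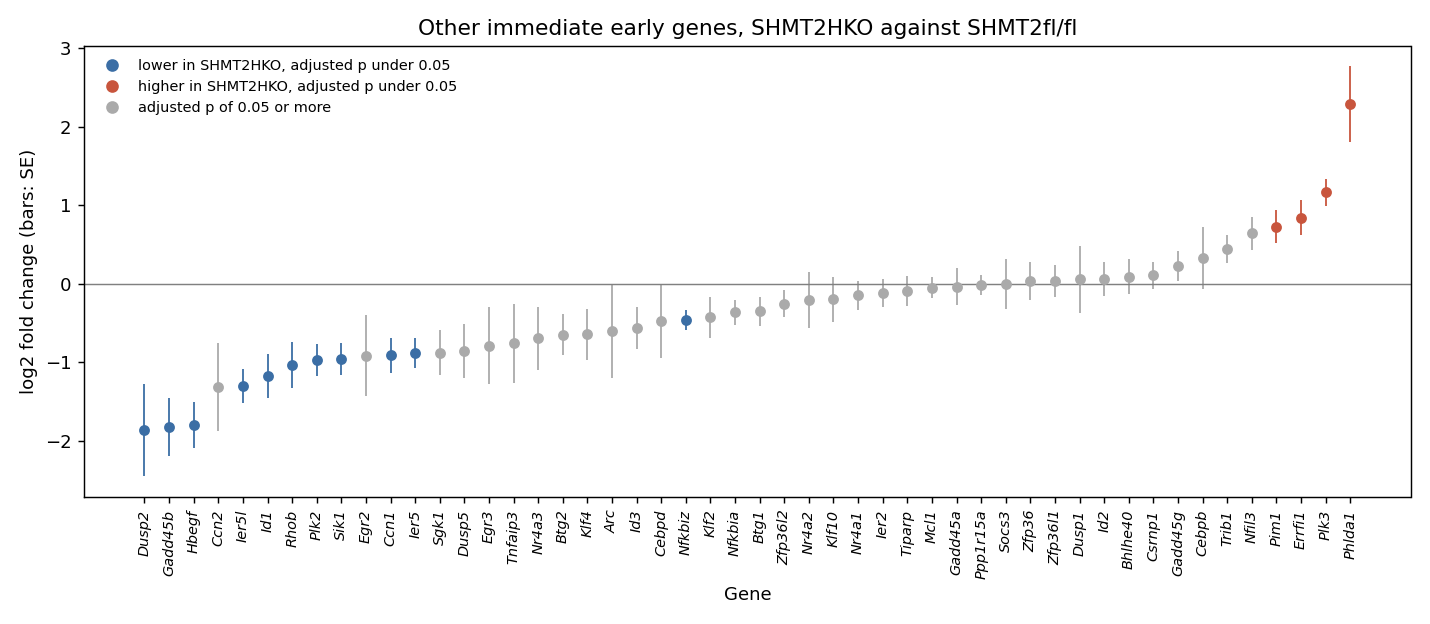
log2 fold change with its standard error (edgeR) of the 50 tested immediate early genes outside the set, SHMT2HKO against SHMT2fl/fl, in rising order. The 11 genes lower at an adjusted p under 0.05 (blue) reach down to -1.87 for Dusp2, and the 4 higher genes (red) up to 2.28 for Phlda1, with 35 genes (grey) not called.

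Upstream of the set, the MAP kinases and their nuclear targets held 6 genes called lower (17.6%, near the 16.5% of all genes) and 1 called higher of 34 tested (35 listed, median -0.02). Map3k1, a kinase that feeds JNK, was at 33.9, 36.0 and 36.6 CPM in controls and 13.2, 12.6 and 19.1 CPM in SHMT2HKO samples (-1.24, adjusted p = 0.00223). Mapk7, which encodes ERK5 (-1.18, adjusted p = 0.00428), the SRF partner Elk3 (-0.73, adjusted p = 0.0115) and Mef2c (-0.99, adjusted p = 0.0118) were lower too, and Map2k3, an activator of p38, was higher (0.61, adjusted p = 0.0110). Of 13 feedback inhibitors of MAP kinases, 2 were called lower (15.4%) and none higher (median -0.32), namely Spry2 (-1.25, adjusted p = 0.00468) and Spry1 (-1.57, adjusted p = 0.0230).

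Downstream, of 28 genes known as AP-1 targets in other cells 26 were tested, and 12 of them were called lower (46.2%, beside 16.5% of all genes) and 1 higher (median -0.91). Sox9 was at 32.6, 46.3 and 36.0 CPM in controls and 8.22, 9.66 and 8.77 CPM in SHMT2HKO samples (-2.11, adjusted p = 0.000639), and Spp1, which encodes osteopontin, at 875, 943 and 791 CPM against 104, 105 and 215 CPM (-2.62, adjusted p = 0.00134). Mmp14 (-0.94, adjusted p = 0.00222), Vim (-1.52, adjusted p = 0.00288) and Timp1 (-1.73, adjusted p = 0.00944) were lower as well. Most of these mark particular cells, Sox9 and Spp1 being also in the list of biliary markers and Vim and Timp1 being known from mesenchymal cells. The gene called higher, named after its value was seen, was Fn1, which encodes the fibronectin that hepatocytes secrete (0.59, adjusted p = 0.0450).

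Among the partners of MYC the calls went both ways. Of 13 genes of the MAX network 2 were called higher (15.4%, beside 12.5% of all genes) and 1 lower (7.69%, beside 16.5%), with a median of 0.03. Mlxipl, which encodes the glucose-responsive factor ChREBP, was at 202, 150 and 166 CPM in controls and 416, 368 and 321 CPM in SHMT2HKO samples (1.09, adjusted p = 0.00324), Mxi1 had a difference of 0.40 (adjusted p = 0.0440) and Mxd3 of -1.19 (adjusted p = 0.0435). Of 24 MYC targets of growth 3 were called higher (12.5%, the share of all genes called higher) and none lower (median 0.14). These were Shmt1, the cytosolic enzyme related to SHMT2 (1.22, adjusted p = 0.00585), the mitochondrial chaperone Hspd1 (0.67, adjusted p = 0.0121) and Ldha (0.75, adjusted p = 0.0290). These medians are smaller than the shifts of the median gene between scalings given above. Among 10 tested of 13 other KLF genes Klf5, a factor of epithelial cells such as those of bile ducts, was lower (2.15, 3.16 and 2.42 CPM against 0.127, 0.202 and 0.393 CPM, -3.37, adjusted p = 0.00186) and Klf9 higher (0.57, adjusted p = 0.0476), 1 gene each way beside 16.5% lower and 12.5% higher of all genes, with a median of -0.22.

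Markers of several cell types moved with genotype, and each count is to be read beside the 16.5% of all genes called lower and the 12.5% called higher. The 9 biliary markers, Spp1 the most abundant, were all called lower, and their summed level was 1069, 1274 and 1020 CPM in controls and 154, 153 and 270 CPM in SHMT2HKO samples. Of 11 stellate cell and fibroblast markers, led by Col3a1, 6 were called lower (54.5%) and 1 higher (9.09%, summed 1646, 1618 and 1681 CPM against 412, 615 and 1023 CPM), and here too SHMT2HKO sample 1 was the lowest and sample 3 the highest. Of 12 lymphocyte markers, led by Ptprc, 7 were called lower (58.3%) and none higher (70.3, 50.9 and 60.0 CPM against 20.9, 20.5 and 27.6 CPM). Of 12 macrophage markers, led by Lyz2, 4 were lower (33.3%) and 3 higher (25.0%, summed 836, 618 and 880 CPM against 461, 570 and 616 CPM). The median log2 fold change of the macrophage list was -0.70. Its 3 higher genes included the Kupffer cell genes Clec4f (2.83, adjusted p = 0.00391) and Timd4 (3.57, adjusted p = 0.00149). The 4 lower ones, which went the other way, are counted but not named here.

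The 10 hepatocyte markers, led by Alb, had 3 called higher (30.0%) and none lower, with sums of 54066, 57047 and 65601 CPM in controls and 100452, 102758 and 69353 CPM in SHMT2HKO samples, sample 3 being nearest to the controls. Of 10 endothelial markers, led by Eng, 2 were higher (20%) and none lower (445, 440 and 446 CPM against 403, 499 and 506 CPM). Of 8 neutrophil markers 4 were tested and 1 called lower, and Ly6g was at 0 in 5 of the 6 samples. No defining marker of hepatocytes, bile ducts, stellate cells, macrophages or lymphocytes was at 0 in any sample. The summed level of the 10 members was 471, 554 and 533 CPM in controls and 265, 353 and 484 CPM in SHMT2HKO samples. Sums of the other immediate early genes and of the heat shock genes had the same order of SHMT2HKO samples. So did the stellate cell and fibroblast, macrophage and endothelial sums, but not the biliary, lymphocyte or hepatocyte sums. The part of these cell types in the levels of the members was not tested.

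**Figure D5:**
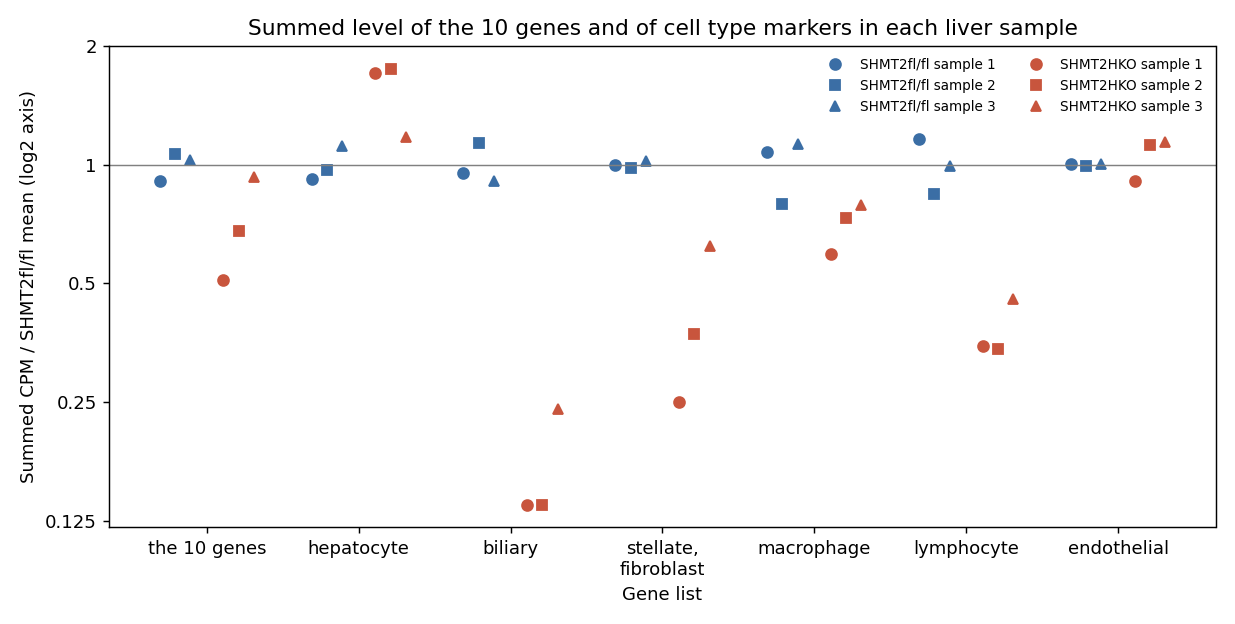
Summed CPM of the 10 genes and of 6 lists of cell type markers in each liver sample, divided by the SHMT2fl/fl mean (y axis, log2 scale, line at 1). SHMT2HKO samples (red) are lowest in the biliary list (153 to 270 CPM). They lie below the controls in the stellate cell and lymphocyte lists, narrowly in the macrophage list, and above them in the hepatocyte list. Sample 3 (triangle) is nearest to the controls in each of these lists and for the 10 genes.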

How the data were processed

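Total liver RNA of 6 samples was sequenced as paired-end Illumina libraries. The authors trimmed reads with Trimmomatic 0.36, aligned them with STAR 2.5.2b to GRCm38 (mm10) and counted them with featureCounts of Subread 1.5.2, as the submitters' processing notes list. The deposited values are whole-number counts per gene, not normalized. Columns were matched to samples by their labels, which number the samples 1 to 3 in each genotype and do not state how they were drawn, so p-values measure the spread between these samples. Spike-in RNAs (92 ERCC entries) did not enter the depth or the fits.

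Genes passing filterByExpr of edgeR 4.0.16 (R 4.3.3) were fitted after TMM scaling, and genotype was tested with the robust quasi-likelihood F test (two-sided), with Benjamini-Hochberg adjustment over 16089 genes. A gene was called at an adjusted p under 0.05. CPM used TMM-scaled library sizes and CPM per kb the union of GENCODE vM21 exons. Ratios were compared by exact two-sided permutation tests, with 20 arrangements of 3 samples against 3. On simulated counts 177 of 200 genes changed 4-fold (88.5%) were recovered, with 13 false calls (6.84% of calls). The simulation changed only these 200 genes and gave each gene the spread typical of its level. Its rates thus do not cover smaller changes, genes with a wider spread, or as many changed genes as were called here.

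The 10 members and the gene and marker lists were chosen with earlier results of these data known, so lists are described by counts and medians only. Named genes were the members, Shmt2, up to 5 called genes with the smallest adjusted p of each list, the 5 most abundant of the AP-1 and immediate early lists, and the 3 genes most like Fos, Jun and Myc among those with a mean of at least 1 log2 CPM (prior count 2), and 1 of the genes this rule names is not reported here. Alternatives were DESeq2 1.42.0, limma-voom (limma 3.58.1), library size without TMM, upper-quartile and ERCC scaling, 2 other filters, no robust estimation, the sample number as a block, a loess correction (span 0.5) for GC content and length, both together, and leaving out each sample.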

Additional observations from a re-analysis of the deposited data

How the results depend on the processing

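Ier3 and Shmt2 were called in all 17 other settings, Junb in 16, and no member was called higher in any. Members called lower numbered 3, 5 without SHMT2HKO replicate 3, 2 to 5 over the samples left out in turn, and 2 to 4 over the other settings. Of all 4663 genes called, 2012 were higher and 2651 lower. With ERCC scaling 2866 were called, 107 of them higher. Without TMM 538 were higher and 4919 lower. With the correction for GC content and length 4203 were higher, and 3236 with the replicate block added. Leaving out samples gave 2426 to 5597 called, 805 to 2521 higher and 1621 to 3076 lower. Of the other immediate early genes 11 were lower, 17 without TMM, 7 with the GC and length correction, and 6 to 18 with samples left out (18 without SHMT2HKO replicate 3 and 6 without SHMT2fl/fl replicate 2). Of the same list 4 were higher, 2 without TMM, 1 with ERCC scaling, 7 with block and correction, and 2 to 5 with samples left out. Other direction changes were 0.10 for Jun, 0.26 for Jund and 0.18 for Fosl2 with the GC and length correction, 0.21 for Jund and 0.16 for Fosl2 with the block added, and -0.23 and -0.50 for Myc without TMM and with ERCC scaling. With samples left out Jun ranged from -0.76 to 0.11, Fos from -0.79 to 0.00517 and Myc from -0.0502 to 0.46. The log2 ratio differences then ranged from -0.0230 to 1.02 for Jun to Junb, -0.31 to 0.22 for Jun to Jund, -0.81 to -0.28 for Junb to Jund, -0.45 to 0.0150 for Fos to Fosl2 and -0.24 to 0.26 for Jun to Fos. The cause of these changes was not tested. By the longest transcript Junb was at 46.8, Fosl2 at 4.30 and Myc at 7.32 CPM per kb in controls.

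Same-numbered samples of the genotypes did not deviate together over all genes tested (r = -0.0459, 0.0125 and -0.0766). The labels state no pairing, and pairing in a part of the genes was not tested. With the replicate block 3584 genes were called, 1397 higher and 2187 lower, and Junb (-0.87, adjusted p = 0.0143), Egr1 (-1.33, adjusted p = 0.0105) and Ier3 (-1.62, adjusted p = 0.0169) remained called by edgeR.

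With 3 samples a group, a spread such as that of Atf3 or Jun in SHMT2HKO leaves a standard error of 0.56 or 0.41 on the log2 scale, so a difference of the size seen was not detectable. Fos rested on 33 to 134 counts and Ier3 on 35 to 282, and counting error adds most there.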

Other observations

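Other inducible and rhythmic genes were counted in the same way. Of 12 heat shock genes, whose products refold proteins, 5 were called higher in SHMT2HKO and 2 lower by edgeR, beside 12.5% and 16.5% of all genes (median log2 fold change 0.48). Hsp90aa1 was at 145, 167 and 156 CPM in controls and 305, 338 and 337 CPM in SHMT2HKO samples (1.06, adjusted p = 0.00155), and Dnaja1 (0.93, adjusted p = 0.00577), Hsph1 (1.09, adjusted p = 0.00683) and Hspe1 (0.78, adjusted p = 0.0182) were higher as well. Every SHMT2HKO sample was above every control in these 4 genes, sample 3 included. Cryab, a small heat shock protein, was lower (19.99, 33.1 and 24.9 CPM against 9.79, 7.28 and 7.59 CPM, -1.66, adjusted p = 0.00180).

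Of 14 clock genes, which vary with the time of day, 1 was called higher (7.14%, beside 12.5% of all genes) and none lower (beside 16.5%), with a median of 0.19. It was Hlf, at 33.9, 39.4 and 36.1 CPM in controls and 60.7, 61.4 and 63.1 CPM in SHMT2HKO samples (0.76, adjusted p = 0.00251). Time of collection was not given for single samples in the sources used here. Mitochondrial transcripts made up 3.48 ± 0.206% of counts in controls and 4.63 ± 0.336% in SHMT2HKO samples, with no overlap (exact permutation p = 0.1, the smallest possible).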
